A study of Mus musculus with 6 samples.

Results

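A set of 34 genes of mitochondrial fuel oxidation was followed in the mouse heart: the enzymes of the tricarboxylic acid (TCA) cycle, the pyruvate dehydrogenase complex and its kinases, the enzymes that burn ketone bodies, and those that break down the branched-chain amino acids (BCAA) leucine, isoleucine and valine. The genes were chosen by their names, with earlier results of these data known, and each was represented by the brightest of its probes. All 34 were among the 19053 genes named on the array, and 31 were bright enough to be tested, among 11166 genes tested in all. By role, 18 belonged to the TCA cycle, 6 to pyruvate oxidation, 3 to ketone oxidation and 7 to BCAA oxidation. Sdha, the flavoprotein subunit of succinate dehydrogenase, Sucla2, a subunit of succinyl-CoA synthetase, and Pdhx, the component of pyruvate dehydrogenase that binds the E3 enzyme, had mean log2 intensities of 5.40, 5.78 and 5.47, below the limit of 5.88 set for testing, and were not tested.

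Total RNA of whole hearts of FvB mice was hybridised to 6 Illumina bead arrays. The mice were wild type or carried a heart-specific JMJD2A transgene, which encodes a histone lysine demethylase, and had undergone sham surgery or thoracic aortic constriction (TAC), a band on the aorta that loads the left ventricle with pressure. There was 1 wild-type sham array, 1 transgenic sham array (JMJD2A-tg), 2 wild-type TAC arrays and 2 transgenic TAC arrays. The labels gave an age of 8 weeks for every animal, whereas the design text counted the age in years, and hearts were taken 3 weeks after surgery. The labels name neither the promoter of the transgene nor the number of transgenic lines, and they do not say whether an array holds RNA of 1 animal or of a pool. P-values therefore measure the spread between these samples only, part of which may be technical, and the number of arrays limits their precision. Values below are log2 intensities of 1 probe per gene, or differences between them, and the levels of different probes are not compared. Where 2 sham values are given the wild-type array comes before the transgenic one, and of 2 TAC values of a genotype array 1 comes before array 2.

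The TCA cycle oxidises acetyl-CoA to carbon dioxide and hands the electrons to the respiratory chain. Acetyl-CoA reaches it from pyruvate through the pyruvate dehydrogenase complex, from ketone bodies through a CoA transfer from succinyl-CoA, and from leucine and isoleucine through the branched-chain keto acid dehydrogenase complex, each complex being switched off by its own kinases. The heart oxidises fatty acids above all and takes up lactate, ketone bodies and BCAA beside them, and cardiac muscle is packed with mitochondria.

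Over all probes the array pairs correlated at r = 0.984 to 0.994. The cardiac muscle genes Myh6 and Myl2 stood at 13.89 to 14.33 and 14.27 to 14.45, as the tissue label requires. Kdm4a, the gene of JMJD2A, lay between 6.45 and 6.75 on all 6 arrays and did not separate the genotypes; the labels do not say whether its probe would detect the transgene. Xist, which is transcribed from the inactive X chromosome of female cells, was at 5.38 on wild-type TAC 2 and 5.41 on transgenic sham, and between 10.36 and 11.03 on the other 4 arrays. The sex of the animals is not given in the labels, and the part of this difference in the results below was not tested except by the fits with Xist named there. Summed intensities of the 9 cardiomyocyte markers with a probe were 116870 and 118890 on the sham arrays and 116620 to 127010 on the TAC arrays. By gene, 4 of these 9 were lower after TAC, and Ryr2 (-0.42), Pln (-0.46) and Tnni3 (-0.28) had an unadjusted p under 0.05, with adjusted p of 0.341, 0.402 and 0.512 (limma). Sums over the 8 fibroblast markers were 16450 and 18080 on sham and 18746 to 25443 on TAC arrays. All 7 fibroblast markers tested lay higher after TAC, with a median of 0.28, as did 6 of 7 endothelial markers (0.21), 6 of 7 macrophage markers (0.16) and 5 of 5 atrial markers (1.47). The atrial genes Sln, Myl4 and Myl7 differed by array within each surgery: Sln read 5.95 and 6.64 on the sham arrays, 10.50 and 7.35 on wild-type TAC, and 6.04 and 8.09 on transgenic TAC. Wild-type TAC 1 and transgenic TAC 2, the arrays highest in these 3 genes and in the fibroblast sum (23927 and 25443), were also the lowest arrays for 8 and 16 of the 31 genes of the set, against 17.4% and 18% of all genes. The part of these cell types in the results below was not tested.

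Promoter windows from RefSeq (GRCm38.p6), each 300 bases long with 250 before and 50 after a transcription start, were found for 30 of the 34 genes, 40 windows in all. They were searched on both strands for elements of the factors best known to drive mitochondrial genes: the estrogen-related receptors (ERR, element TCAAGGTCA with the core AAGGTCA), the ETS factor GABP (CCGGAAGT, core CCGGAA) and NRF1 (its palindromic element). The ERR element was in 1 of the 40 windows, that of Sdhd, or 2.5%, against 0.423% of all 32851 windows. Its core, which the element contains, was in the windows of Ogdh and Sdhd, or 5% against 4.72%. The GABP element was in the window of Dlst, or 2.5% against 3.89%. Its core, contained in that element, was in 9 windows, those of Bckdhb, Dld, Dlst, Fh1, Idh3b, Idh3g, Mdh1, Sdhb and Sdhd, or 22.5% against 14.9%. The NRF1 element was in no window of the set, against 0.971% of all. Shortened by its last letter to GCGCATGCG, a form searched only after the full element had given no match, it was in 2 windows, or 5% against 1.75%; both are overlapping windows of Ogdh that share the same stretch, and neither is the window shown. A match is a string of letters and not a measured site. The windows of Sdhd, a membrane anchor of succinate dehydrogenase (chr9:50603800-50604099, minus strand), and Ogdh, the E1 subunit of 2-oxoglutarate dehydrogenase (chr11:6291920-6292219, plus strand), are shown because they hold the ERR letters, which run on the opposite strand and are marked by capitals, beginning 37 bases after the start in Sdhd and 5 before it in Ogdh.
Sdhd: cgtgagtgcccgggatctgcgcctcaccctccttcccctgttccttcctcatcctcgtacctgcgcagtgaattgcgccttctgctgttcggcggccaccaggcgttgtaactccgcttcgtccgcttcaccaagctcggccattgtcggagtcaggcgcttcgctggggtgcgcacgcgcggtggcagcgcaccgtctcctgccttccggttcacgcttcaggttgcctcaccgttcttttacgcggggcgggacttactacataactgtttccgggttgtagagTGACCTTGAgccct
Ogdh: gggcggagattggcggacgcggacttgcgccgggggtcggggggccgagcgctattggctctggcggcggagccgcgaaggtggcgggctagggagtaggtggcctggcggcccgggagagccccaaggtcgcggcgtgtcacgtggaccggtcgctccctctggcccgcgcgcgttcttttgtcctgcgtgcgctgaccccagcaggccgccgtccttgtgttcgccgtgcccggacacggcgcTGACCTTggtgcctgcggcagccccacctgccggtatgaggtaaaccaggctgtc

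Across both genotypes, the tested genes lay lower on the 4 TAC arrays than on the 2 sham arrays. The difference was below 0 for 29 of 31 genes, with a median of -0.32, whereas it was below 0 for 51.5% of all genes tested, with a median of -0.01. For 14 of the 31, or 45.2%, both sham arrays lay above all 4 TAC arrays, against 8.16% of all genes, or 16.5% counted in either direction, and no gene of the set showed the reverse. None of the 31 passed the test at an adjusted p under 0.05 (limma, adjusted over all genes tested); 0.00896% of all genes did, which is 1 gene. At an unadjusted p under 0.05 there were 14 of the 31, all lower, against 9.25% of all genes, 4.5% being lower. That count was 7 when wild-type TAC 1 was left out and 9 with Xist as a covariate, against 4.76% and 5.88% of all genes. In both of these fits 29 genes lay below 0. Without the transgenic sham array the fit reduces to wild-type TAC against wild-type sham, the contrast given below. There 25 genes lay below 0, with a median of -0.18. Without both arrays of low Xist it sets wild-type TAC 1 alone against the wild-type sham array. In that case 26 genes lay below 0, with a median of -0.24. Neither of these 2 fits uses the response of the transgenic hearts, so neither checks the contrast over both genotypes. Because whole hearts were used, fewer cells of a type and less RNA per cell cannot be told apart.

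**Figure D1:**
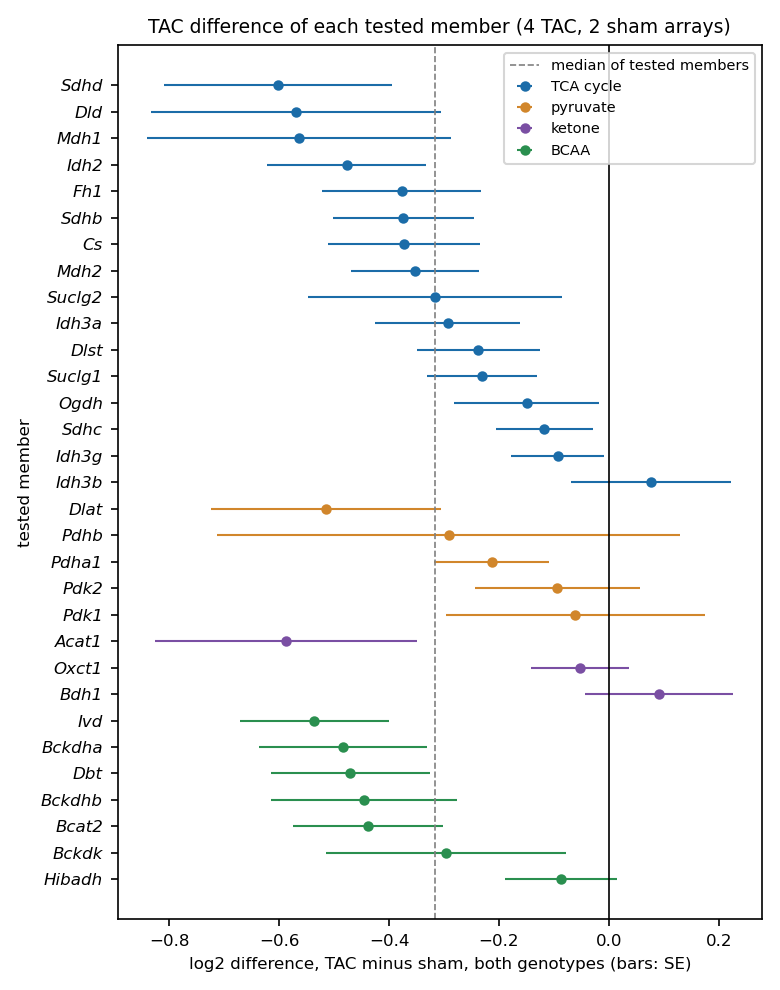
Log2 difference between the TAC and sham arrays of both genotypes for each of the 31 tested genes (x axis), grouped by role and sorted by difference within each role. Points are fitted differences, bars are standard errors and colours are roles. All but Bdh1 and Idh3b lie left of 0, and the dashed line marks the median of -0.32.

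The TCA cycle enzymes were lower after TAC in 15 of 16 cases, against 51.5% of all genes, with a median difference of -0.34. Of the 16, 7 had an unadjusted p under 0.05 (limma), against 9.25% of all genes. Citrate synthase, encoded by Cs, which joins acetyl-CoA to oxaloacetate at the entry of the cycle, stood at 12.50 and 12.89 on the sham arrays, 12.31 and 12.47 on wild-type TAC, and 12.31 and 12.19 on transgenic TAC. Both sham arrays were above all TAC arrays, but wild-type sham exceeded wild-type TAC 2 by little, and the transgenic sham array was the highest of all. The difference for Cs was -0.37 ± 0.14 (SE; adjusted p = 0.457), and -0.11 ± 0.17 without the transgenic sham array. Idh2, the NADP-dependent isocitrate dehydrogenase of the mitochondrion, read 12.25 and 12.72 on the sham arrays, 11.74 and 12.15 on wild-type TAC, and 12.10 and 12.05 on transgenic TAC. Again no TAC array reached a sham array, and the difference was -0.48 ± 0.14 (adjusted p = 0.381), a fold of 0.718.

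Further round the cycle, the NAD-dependent isocitrate dehydrogenase showed unequal differences among its subunits. Its catalytic subunit Idh3a lay at -0.29 ± 0.13, whereas Idh3g and Idh3b, which regulate or assist it, lay at -0.09 ± 0.08 and 0.08 ± 0.15, and none passed the test. Ogdh stood at 13.32 and 13.39 on the sham arrays, 13.38 and 13.27 on wild-type TAC, and 12.89 and 13.27 on transgenic TAC. Its groups overlapped, with only transgenic TAC 1 standing apart, and its difference of -0.15 ± 0.13 turned to 0.01 ± 0.19 without the transgenic sham array and to 0.07 ± 0.27 without both arrays of low Xist. Dlst, the E2 subunit of the same complex, differed by -0.24 ± 0.11. Dld, the E3 subunit that this complex shares with pyruvate dehydrogenase and the BCAA complex, read 6.82 and 7.95 on the sham arrays, 6.54 and 7.03 on wild-type TAC, and 7.11 and 6.58 on transgenic TAC. For Dld the transgenic sham array was far above the others and the wild-type sham array lay between the 2 wild-type TAC arrays. The Dld difference of -0.57 ± 0.26 (adjusted p = 0.547) was -0.03 ± 0.30 without the transgenic sham array.

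The succinyl-CoA synthetase subunits Suclg1 and Suclg2, which together make the form of the enzyme that yields GTP, differed by -0.23 ± 0.10 and -0.32 ± 0.23. Among succinate dehydrogenase subunits, which feed electrons to ubiquinone, the iron-sulfur subunit Sdhb stood at 12.89 and 12.84 on the sham arrays, 12.59 and 12.74 on wild-type TAC, and 12.47 and 12.17 on transgenic TAC. The order of Sdhb was sham, then wild-type TAC, then transgenic TAC, with no overlap, and its TAC difference was -0.37 ± 0.13 (adjusted p = 0.421). The membrane anchors Sdhc and Sdhd differed by -0.12 ± 0.09 and -0.60 ± 0.21. The value for Sdhd was the lowest of the set. Fumarase, encoded by Fh1, and mitochondrial malate dehydrogenase, encoded by Mdh2, which close the cycle, differed by -0.38 ± 0.14 and -0.35 ± 0.12. Cytosolic malate dehydrogenase, encoded by Mdh1, which serves the malate-aspartate shuttle, differed by -0.56 ± 0.28.

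Pyruvate oxidation was represented by 5 tested genes, all below 0, against 51.5% of all genes, with a median of -0.21. Only 1, Dlat, had an unadjusted p under 0.05 (limma), against 9.25% of all genes. Dlat, the E2 core of pyruvate dehydrogenase, differed by -0.52 ± 0.21 (adjusted p = 0.504). The E1 subunits Pdha1 and Pdhb differed by -0.21 ± 0.10 and -0.29 ± 0.42. Pdhb had the widest spread of the set, from 9.38 on transgenic TAC 2 to 11.30 on transgenic TAC 1. Pyruvate dehydrogenase kinase 2, encoded by Pdk2, which switches the complex off by phosphorylation, stood at 9.78 and 9.97 on the sham arrays, 9.87 and 9.87 on wild-type TAC, and 9.58 and 9.79 on transgenic TAC. Its groups overlapped, and its difference was -0.09 ± 0.15, or 0.09 ± 0.23 without the transgenic sham array and 0.10 ± 0.36 without both arrays of low Xist. Pdk1, another kinase of the complex, differed by -0.06 ± 0.24.

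Of the 3 ketone genes, 2 lay near 0 and Acat1 well below it, with a median of -0.05. Oxct1, the transferase that activates acetoacetate with CoA from succinyl-CoA, read 13.81 and 14.03 on the sham arrays, 13.80 and 13.84 on wild-type TAC, and 13.99 and 13.86 on transgenic TAC. Sham and TAC overlapped, and the difference was -0.05 ± 0.09 (adjusted p = 0.894), or 0.01 ± 0.14 without the transgenic sham array. Bdh1, which oxidises beta-hydroxybutyrate to acetoacetate, stood at 10.95 and 10.98 on sham, 10.96 and 10.96 on wild-type TAC, and 11.30 and 11.00 on transgenic TAC. For Bdh1 only transgenic TAC 1 stood apart, and the difference was 0.09 ± 0.13. Acat1, the thiolase that splits acetoacetyl-CoA and also serves isoleucine breakdown, differed by -0.59 ± 0.24 (adjusted p = 0.504) without overlap between sham and TAC.

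For BCAA oxidation all 7 genes lay below 0, against 51.5% of all genes, from -0.54 to -0.09 with a median of -0.45. An unadjusted p under 0.05 was found for 5 of them (limma), against 9.25% of all genes. Ivd, isovaleryl-CoA dehydrogenase of the leucine pathway, stood at 11.99 and 11.81 on the sham arrays, 11.33 and 11.51 on wild-type TAC, and 11.48 and 11.14 on transgenic TAC. Both sham arrays lay clear of all 4 TAC arrays. The difference for Ivd was -0.54 ± 0.14, a fold of 0.69, with an unadjusted p of 0.00319 that was the smallest of the set and an adjusted p of 0.319. Over the fits that leave out 1 array, its adjusted p ranged from 0.0671 to 1. Bcat2, the mitochondrial transaminase that starts BCAA breakdown, read 10.38 and 10.81 on the sham arrays, 9.91 and 10.15 on wild-type TAC, and 10.28 and 10.29 on transgenic TAC. Its sham arrays were above all TAC arrays, and its difference was -0.44 ± 0.14 (adjusted p = 0.402).

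The branched-chain keto acid dehydrogenase takes the products of Bcat2 further. Dbt, its E2 core, stood at 9.74 and 9.87 on the sham arrays, 9.28 and 9.45 on wild-type TAC, and 9.37 and 9.23 on transgenic TAC. Dbt did not overlap between sham and TAC and differed by -0.47 ± 0.14 (adjusted p = 0.390). The E1 subunits Bckdha and Bckdhb differed by -0.48 ± 0.15 and -0.45 ± 0.17. Bckdk, the kinase that inhibits this complex, read 10.49 and 10.56 on sham, 10.26 and 10.21 on wild-type TAC, and 10.67 and 9.79 on transgenic TAC. The transgenic TAC arrays of Bckdk enclosed both sham arrays from above and below, and the difference was -0.30 ± 0.22. Hibadh, a dehydrogenase of valine breakdown, differed by -0.09 ± 0.10.

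**Figure D2:**
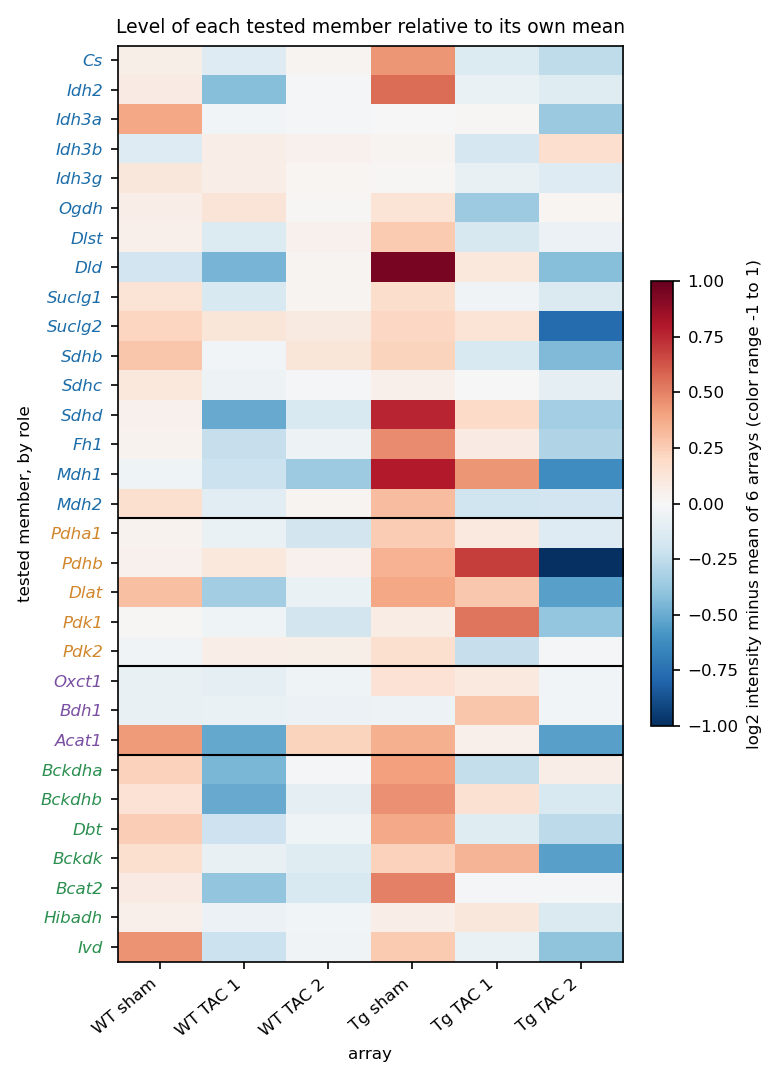
Level of each of the 31 tested genes (rows, grouped by role) on each of the 6 arrays (columns), as log2 intensity minus the mean of that gene over the 6 arrays; colours end at -1 and 1. The transgenic sham column is the highest of its row for 18 genes, and transgenic TAC 2 is the lowest for 16, against 16.4% and 18% of all genes tested.

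The 2 sham arrays were not alike for these genes, and each is the only array of its group. The transgenic sham array was the highest of the 6 for 18 of the 31 genes, or 58.1%, against 16.4% of all genes tested. The wild-type sham array was the highest for 7, against 20.4% of all genes. Intensities summed over the 34 genes were 159070 on wild-type sham, 140220 and 146940 on wild-type TAC, 171320 on transgenic sham, and 147550 and 133030 on transgenic TAC. Both sham sums thus lay above all TAC sums. Leaving out the transgenic sham array gave a median TAC difference of -0.18, and leaving out the wild-type sham array gave -0.49. The fit then reduces to the contrast within wild type or within transgenic hearts, and these are the medians of those contrasts. The 2 transgenic TAC arrays also differed from each other: their absolute difference had a median of 0.31 over the 31 genes and 0.22 over all genes, against 0.15 and 0.14 for the wild-type TAC pair. Transgenic TAC 1 was above transgenic TAC 2 for 24 of the 31 genes, and for 4611 of all 11166.

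**Figure D3:**
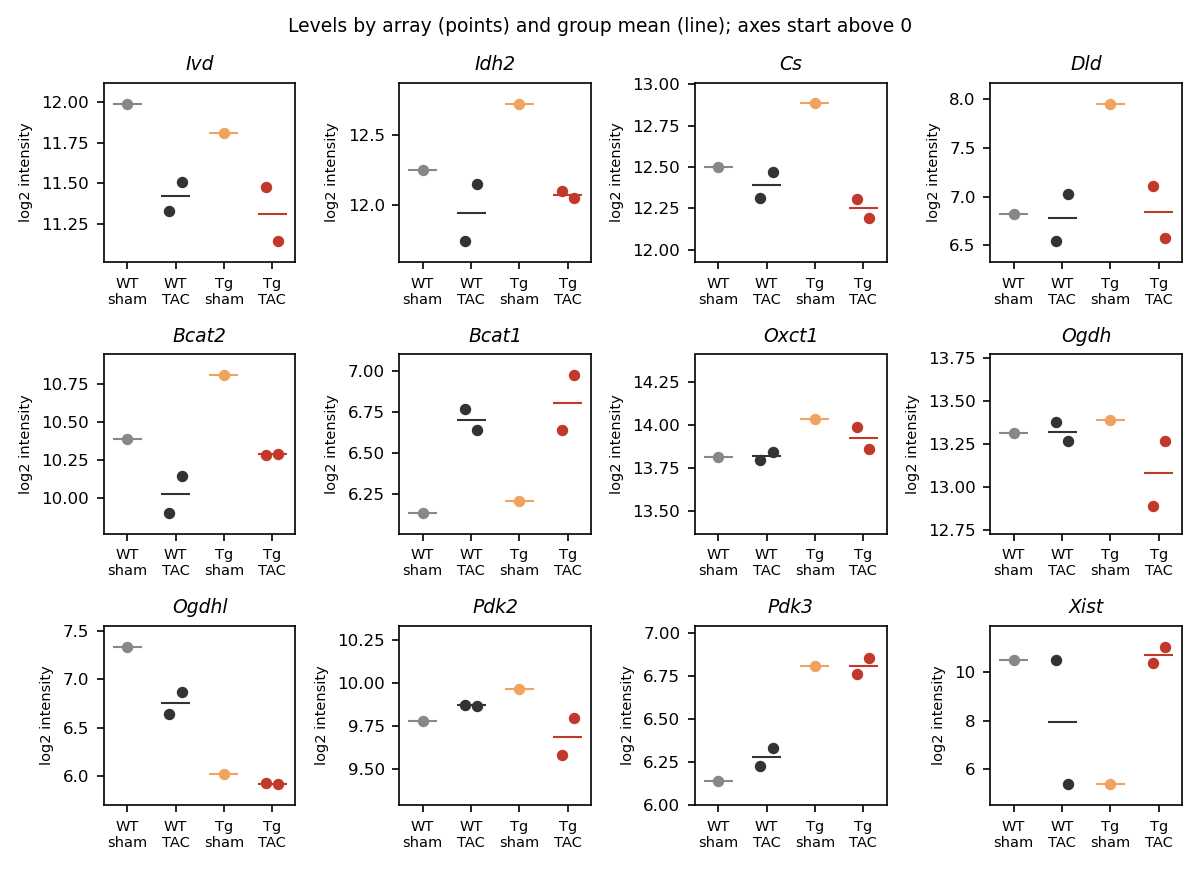
Log2 intensity of 12 genes on each of the 6 arrays (points) with the mean of each group (line), for wild-type (WT) and transgenic (Tg) sham and TAC hearts; axes do not start at 0 and differ between panels. Ivd, Idh2 and Bcat2 are higher on both sham arrays than on any TAC array, Dld is high on the transgenic sham array alone, Ogdhl and Pdk3 separate by genotype, and Xist is low on transgenic sham and wild-type TAC 2.

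Within wild type, 25 of 31 genes were lower on the 2 TAC arrays than on the sham array, with a median of -0.18 beside -0.01 for all genes, 52.9% of which were lower. With 2 arrays against 1, separate groups are common: 28 of the 31 genes did not overlap, 24 of them lower, against 73.1% of all genes, 38.7% being lower. No gene of the set passed the test (limma; smallest adjusted p = 1), 0% of all genes did, and 1 of the 31 had an unadjusted p under 0.05, against 3.56% of all, 1.67% being lower. That gene was Ivd at -0.57 ± 0.21. The count was 4 without transgenic TAC 1 or 2, against 8% and 8.01% of all genes, and 0 without wild-type TAC 1 or 2, against 1.12% and 2.9%. Idh3a at -0.40 ± 0.20, Bckdha at -0.47 ± 0.24 and Bcat2 at -0.36 ± 0.22 followed. Bckdha read 11.98 on wild-type sham and 11.29 and 11.73 on wild-type TAC, and Idh3a read 12.71 on sham and 12.30 and 12.31 on TAC. By role the medians were -0.16 for the TCA cycle, -0.12 for pyruvate, 0.01 for ketone and -0.37 for BCAA oxidation. Wild-type TAC 2, with low Xist, was above wild-type TAC 1 for 21 of the 31 genes, against 54.8% of all genes.

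Within the transgenic hearts, 30 of 31 genes were lower on the TAC arrays than on the sham array, with a median of -0.49 beside 0.01 for all genes, 49.1% of which were lower. Arrays did not overlap for 25 of the 31, 24 of them lower, against 61.1% of all genes, 30% being lower. None passed the test (limma), 0% of all genes did, and 11 of the 31 had an unadjusted p under 0.05, all lower, against 4.86% of all, 2.62% being lower. The smallest p were those of Cs at -0.64 ± 0.17, Dld at -1.11 ± 0.30, Idh2 at -0.65 ± 0.21 and Mdh2 at -0.51 ± 0.17, each with an adjusted p of 0.991. Mdh2 stood at 12.59 on transgenic sham and 12.08 and 12.09 on transgenic TAC. By role the medians were -0.51 for the TCA cycle, -0.28 for pyruvate, -0.11 for ketone and -0.49 for BCAA oxidation; Bdh1, at 0.17 ± 0.21, was the only gene above 0. Without transgenic TAC 1, 29 genes lay below 0, against 46.2% of all genes, with a median of -0.52. That fit sets 1 transgenic TAC array against 1 transgenic sham array and takes its spread from the wild-type TAC pair alone, the closer of the pairs. Without transgenic TAC 2 the median was -0.30. The count at an unadjusted p under 0.05 was 19 without transgenic TAC 1, against 18.7% of all genes. It was 4 without wild-type TAC 1 or 2, which enter only the estimate of the spread, against 2.71% and 2.73%. Xist was low on the transgenic sham array and high on both transgenic TAC arrays, so within this genotype it ran with surgery, and with Xist as a covariate 28 genes lay below 0 with a median of -0.26 and 0 at an unadjusted p under 0.05, against 0.743% of all genes.

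**Figure D4:**
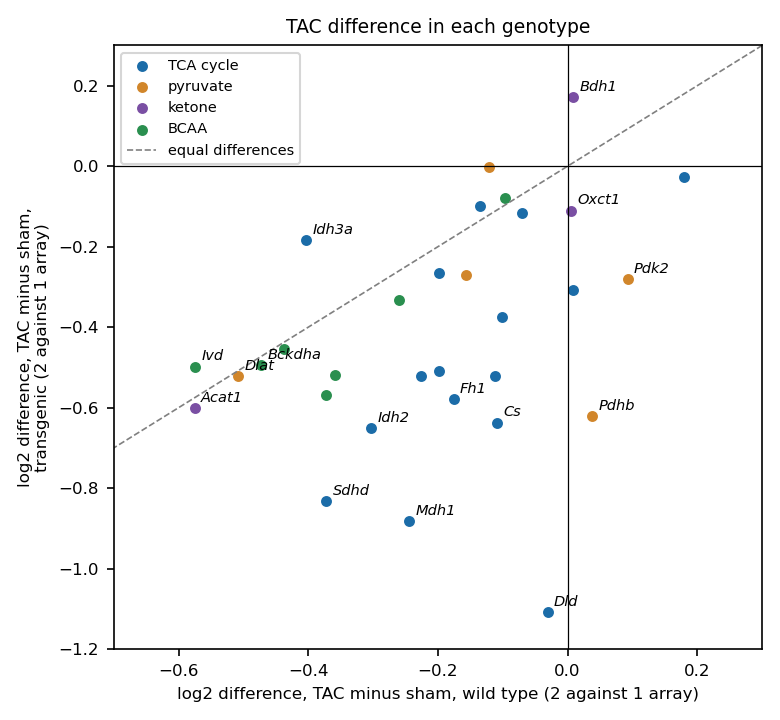
Log2 difference between TAC and sham in wild-type hearts (x axis) and in transgenic hearts (y axis) for the 31 tested genes, coloured by role, each axis from 2 TAC arrays against 1 sham array; the dashed line marks equal differences. Most points lie below the line, with Dld lowest at -1.11 on the transgenic axis and -0.03 on the wild-type axis.

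The difference of the TAC responses, transgenic minus wild type, was below 0 for 25 of 31 genes, with a median of -0.16 beside 0.01 for all genes, 47.7% of which lay below 0. No gene of the set and 0% of all genes passed the test (limma), and 1 of the 31, Dld, had an unadjusted p under 0.05, against 1.64% of all. Without transgenic TAC 1 there were 6, against 8%. Dld differed between the responses by -1.08 ± 0.43, Cs by -0.53 ± 0.24, Fh1 by -0.40 ± 0.28 and Mdh2 by -0.31 ± 0.24, each with an adjusted p of 1. Fh1 had read 12.75 on wild-type sham with 12.49 and 12.66 on wild-type TAC, and 13.19 on transgenic sham with 12.80 and 12.42 on transgenic TAC. With Xist as a covariate the median was 0.03 and 15 of 31 genes lay below 0. Leaving out transgenic TAC 2 gave -0.05, and leaving out wild-type TAC 1 or transgenic TAC 1 gave -0.26 and -0.27. The 4 groups rest on 1 array each for sham, so a larger response in transgenic hearts cannot be told apart from a high transgenic sham array.

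Between genotypes over both surgeries, the set showed no common direction. Of 31 genes 12 were lower and 19 higher in transgenic hearts, with a median of 0.02 beside -0.01 for all genes, 52.4% of which were lower. With either sham array left out, the fit reduces to the contrast after TAC given below, with a median of -0.02. No gene of the set passed the test (limma), whereas 0.949% of all genes did, and 1 of the 31 had an unadjusted p under 0.05, against 11.5% of all. That gene was Bcat2, higher by 0.31 ± 0.13 (adjusted p = 0.397). Arrays did not overlap between genotypes for 3 genes of the set, against 16.1% of all: Idh3g stood at -0.13 ± 0.08, and Oxct1 and Bdh1 at 0.14 ± 0.08 and 0.13 ± 0.13. Idh3g read 13.99, 13.94 and 13.89 on the wild-type arrays and 13.89, 13.80 and 13.74 on the transgenic arrays, an ordering without a gap. The other genes fixed for description stood at 0.03 ± 0.13 for Cs, 0.25 ± 0.14 for Idh2, -0.14 ± 0.12 for Ogdh, 0.42 ± 0.25 for Dld, -0.06 ± 0.14 for Pdk2 and 0.02 ± 0.21 for Bckdk. Without transgenic TAC 2, which leaves 1 transgenic TAC array, Mdh1 stood at 0.78 and the median of the set at 0.10, beside -0.03 for all genes. The median of the set was 0.09 without wild-type TAC 2 and 0.00 without transgenic TAC 1.

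After TAC, the only contrast with 2 arrays in each group, 17 of 31 genes were lower and 14 higher in transgenic hearts, with a median of -0.02 beside 0.00 for all genes, 50.8% of which were lower. None of the set passed the test (limma), 0.206% of all genes did, and 0 of the 31 had an unadjusted p under 0.05, against 5.76% of all. Arrays did not overlap for 8 genes, against 32.3% of all genes. Among them Sdhb was lowest at -0.35 ± 0.15 (adjusted p = 0.874), with Bcat2 at 0.26 ± 0.18, Idh3g at -0.14 ± 0.11 and Mdh2 at -0.16 ± 0.14 next by p. The median turned to 0.15 without transgenic TAC 2, to 0.04 without wild-type TAC 2 and to 0.06 with Xist as a covariate, and it was -0.08 without wild-type TAC 1 and -0.13 without transgenic TAC 1. Unadjusted p under 0.05 numbered 5 without transgenic TAC 1 and 7 without transgenic TAC 2, against 12.5% and 16.9% of all genes. Without transgenic TAC 1, which leaves 1 transgenic TAC array, Pdhb stood at -1.31 and Suclg2 at -0.88, the spread again coming from the wild-type pair alone. The tested Pdhb probe read 9.38 on transgenic TAC 2 and 10.72 and 10.66 on wild-type TAC. Smaller gaps separated its other probes above the testing limit. These read 7.99 on transgenic TAC 2 beside 8.49 and 8.46 on wild-type TAC, and 6.50 beside 6.51 and 7.07.

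Between the sham arrays, 1 in each group, 24 of 31 genes were higher in the transgenic heart, with a median difference of 0.15 beside -0.02 for all genes, of which 47.1% were higher. Each of these arrays also enters the contrasts above. A test that takes the spread of the TAC pairs for that of the sham arrays was added after these values were seen. No gene of the set passed it (limma; smallest adjusted p = 0.745), against 0.0269% of all genes, and 1 of the 31, Dld, had an unadjusted p under 0.05, against 5.52% of all. That count was 7 without transgenic TAC 1 or 2, against 12.4% of all genes in both fits. Dld differed by 1.14 ± 0.35, a fold of 2.20, and was the only gene of the set to differ by at least 1, against 1.04% of all genes. Mdh1 followed at 0.84, Sdhd at 0.72, Idh2 at 0.48, Fh1 at 0.43, Bcat2 at 0.42 and Cs at 0.39. All 5 pyruvate genes were higher, with a median of 0.19. Idh3a had the lowest value, -0.38, and Ivd stood at -0.18.

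The set had 62 probes, 48 of them above the limit for testing, and 12 genes had more than 1 such probe. Between TAC and sham over both genotypes, 45 of the 48 probes lay below 0. In the transgenic hearts 47 of 48 did, and in wild type 38 of 48. Of the 12 genes, 6 had probes that differed in sign between the sham arrays, and 4 between genotypes after TAC. Between TAC and sham this held for 3 within wild type, 0 within transgenic hearts and 1 over both genotypes. Probes of a gene lay on opposite sides of 0 by over 0.3 each way in 1 case. For Idh3a, the tested probe stood at -0.38 between the sham arrays and the other at 0.36, while both lay lower after TAC. The 3 probes of Mdh1 agreed on a higher transgenic sham array, at 0.84, 0.62 and 0.57. Transgenic TAC 1 exceeded transgenic TAC 2 by at least 1 for 5 of the 48 probes, or 10.4%, against 2.76% of all 17442 probes above the limit. The tested probe of Pdhb was higher by 1.92 there while its other probes were higher by 0.08 and 0.43. Other probes of Suclg1 and Idh3g were higher by 2.29 and 1.96 there, whereas their tested probes were higher by 0.11 and 0.06. These genes and probes of Pdhb, Suclg1 and Idh3g were singled out after their values were seen.

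**Figure D5:**
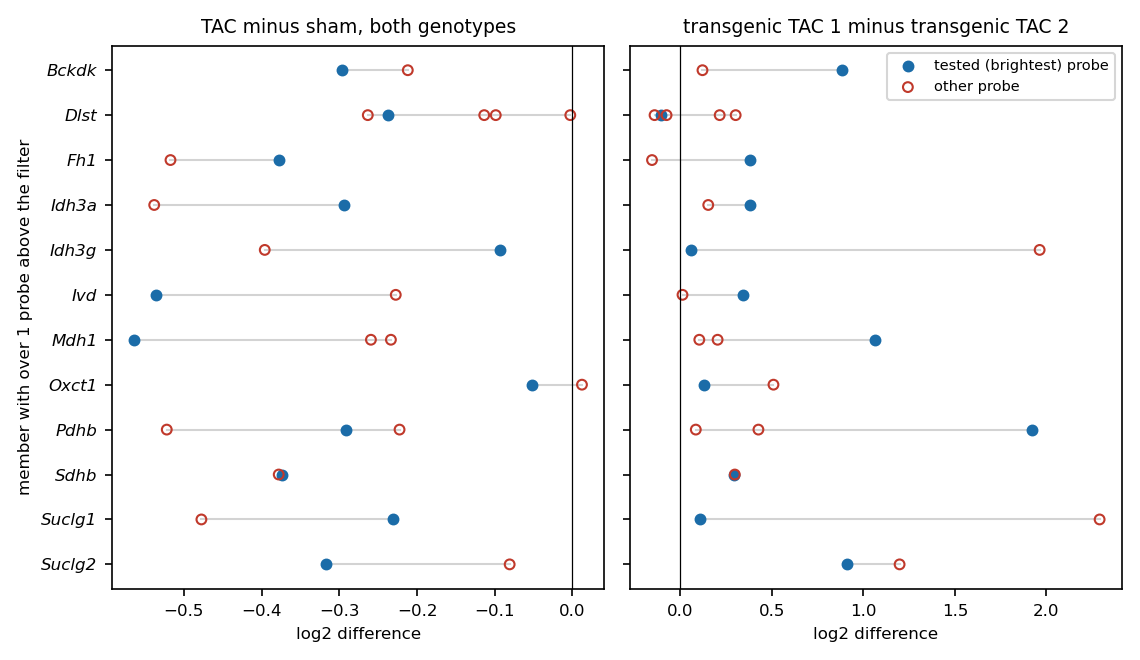
Log2 differences of every probe above the testing limit for the 12 genes with more than 1 such probe, in separate panels by contrast (x axes) with 1 row per gene; filled points are the tested probes and open points the others. The panels show TAC minus sham over both genotypes, and transgenic TAC 1 minus transgenic TAC 2. Both probes of Idh3a lie on the same side of 0 in each panel. The sham pair, where they stood at -0.38 and 0.36, is not drawn.

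Other genes of these pathways were taken from lists of 59 genes, of which 50 had a probe and 41 were tested. Over both genotypes 31 of the 41 were lower after TAC, against 51.5% of all genes, with a median of -0.20. None passed the test (limma), against 0.00896% of all genes, and 8 had an unadjusted p under 0.05, against 9.25%. Bcat1, the cytosolic transaminase of BCAA, lay the other way from Bcat2: it read 6.14 and 6.21 on the sham arrays, 6.77 and 6.64 on wild-type TAC, and 6.64 and 6.97 on transgenic TAC. All TAC arrays were above both sham arrays, and the difference was 0.58 ± 0.13 (adjusted p = 0.274). Aldh6a1, a dehydrogenase of valine breakdown, stood at -0.65 ± 0.18, Ppm1k, the phosphatase that opposes Bckdk, at -0.55 ± 0.19, and Hsd17b10, a dehydrogenase of isoleucine breakdown, at -0.41 ± 0.13, all without overlap. Of the 12 other BCAA genes tested, 9 were lower, with a median of -0.38. Pdk4, a kinase of pyruvate dehydrogenase that responds to fatty acid supply, spread from 11.25 to 12.83 between the 2 transgenic TAC arrays and stood at -0.05 ± 0.36.

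Between genotypes over both surgeries, 2 of these 41 genes passed the test (limma), against 0.949% of all genes, and they are paralogs of genes in the set. Ogdhl, a relative of Ogdh, read 7.34 on wild-type sham, 6.64 and 6.87 on wild-type TAC, 6.02 on transgenic sham, and 5.92 and 5.91 on transgenic TAC. All transgenic arrays were below all wild-type arrays and close to the testing limit, so that a fold is understated, and Ogdhl fell by 1.00 ± 0.13 on the log2 scale (adjusted p = 0.0102). Pdk3, a relative of Pdk1 and Pdk2, read 6.14, 6.22 and 6.33 on the wild-type and 6.81, 6.76 and 6.85 on the transgenic arrays. The groups were apart by more than either varied, and Pdk3 rose by 0.58 ± 0.11 (adjusted p = 0.0485). Both calls ended in the fit that combined the probes of a gene by their median (adjusted p = 0.0531 for Ogdhl and 0.0541 for Pdk3). They also ended when wild-type TAC 2 or both arrays of low Xist were left out, and when either sham array was. Without a sham array the fit reduces to the contrast after TAC, whose values are given below. Pdk3 further lost its call with Xist as a covariate (adjusted p = 0.101), without wild-type TAC 1 (0.265), and with the lower quartile subtracted, no intensity trend or robust variances (0.0858, 0.0762 and 0.0533).

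Pdp2 and Nnt came next by p in the same contrast. Pdp2, the phosphatase that switches pyruvate dehydrogenase back on, read 11.47, 10.45 and 10.88 on the wild-type and 10.02, 10.12 and 9.59 on the transgenic arrays. No array overlapped, and the difference was -1.02 ± 0.20 (limma, adjusted p = 0.0605). With 1 array left out at a time it ranged from -1.24 to -0.81. Nnt, the transhydrogenase that makes NADPH in mitochondria, stood at -0.69 ± 0.17 (limma, adjusted p = 0.136) by its brightest probe and at 0.01 by the median of its probes. By the brightest probe it ranged from -0.86 to -0.54 with 1 array left out at a time. After TAC alone the differences were -0.84 ± 0.15 for Ogdhl, 0.53 ± 0.14 for Pdk3, -0.81 ± 0.24 for Pdp2 and -0.64 ± 0.24 for Nnt, none past the test.

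Of 16 regulators of oxidative genes 14 were tested, and none passed in any contrast. Over both genotypes 9 were lower after TAC, against 51.5% of all genes, with a median of -0.18. Ppargc1a, the coactivator that drives mitochondrial biogenesis, stood at -0.42 ± 0.18, with 9.38 and 9.14 on the sham arrays and 8.60 to 9.13 on the TAC arrays. Klf15, a factor that induces BCAA breakdown genes, stood at -0.27 ± 0.10 (adjusted p = 0.486), and its levels of 5.94 to 6.35 were close to the testing limit. Esrra, the ERR alpha gene, read 11.83 and 11.76 on the sham arrays and 11.44 to 11.72 on the TAC arrays, a difference of -0.24 ± 0.13 (adjusted p = 0.603). Gabpa stood at 0.06 ± 0.15 and Nrf1 at 0.01 ± 0.17.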

How the data were processed

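RNA of hearts in 4 groups (genotype by surgery) was measured on 6 Illumina arrays. The deposited table holds intensity, unlogged, with 1 value for each probe of an array; the software and any normalization the authors applied are not stated in the labels. Medians of the arrays were nearly equal (56.3 to 56.4), and sorted columns deviated from their common mean by no more than 0.0064 in log2 units, as quantile normalization leaves them. These values were used as deposited, except that 12 intensities under 32 were raised to 32 before taking log2. No background was subtracted, so that folds near background are understated. Of 45281 probes, 34885 carried 1 symbol in the platform annotation, 18 several and 10378 none, and 10 symbols were updated through a RefSeq gene table. The brightest probe stood for a gene, and genes above the 50th percentile (intensity 58.7) were tested.

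Linear models were fitted in limma 3.58.1 under R 4.3.3, with empirical Bayes variances following the intensity, and p-values were adjusted by Benjamini-Hochberg over 11166 genes. Errors are SE of the fit, and an adjusted p under 0.05 counted as passing. Surgery and genotype as additive terms gave the contrasts over both genotypes and both surgeries (3 residual degrees of freedom), and 1 mean per group gave the others (2 residual). The fits take each sham array, alone in its group, to be as variable as the TAC pairs. With 1 sham array left out, the additive fit reduces to simpler contrasts. For surgery it gives the contrast within the genotype that keeps its sham array, and for genotype the contrast after TAC. The sham arrays were first compared by value, and a test of that pair by the same fit was added after the values were seen. The steps were tested on simulated data with known changes. A log2 change of 0.5 was called in 16.4% of cases for TAC over both genotypes and 14.9% between genotypes over both surgeries. It was called in 4.48% between genotypes after TAC, 1.49% within transgenic hearts, and 0% within wild type, for the difference of the responses and between sham arrays. Changes of that size were thus mostly missed. A change of 1 was called in 67.2% for TAC over both genotypes and 16.4% within wild type. No list test was made: counts and medians stand beside those of all genes.

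Per-array values were given for Cs, Idh2, Ogdh, Dld, Pdk2, Oxct1, Bdh1, Bckdk and Bcat2 and considered for the 4 genes of smallest p without overlap in each contrast, and up to 4 other pathway genes per contrast were named by p. Pdk4, Sdhd, Mdh1, Ppargc1a, Esrra, Gabpa and Nrf1 were named for their role or after their values were seen. The genes, lists and tests were chosen with earlier results of these data known. Alternatives were the median over probes, other filters, subtraction of each array's lower quartile, other variance models, Xist as a covariate and leaving out arrays. The promoter motifs were searched as first chosen, and the shortened NRF1 element was added after seeing the data.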

Additional observations from a re-analysis of the deposited data

How the results depend on the processing

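For 37 named differences of genes in the set, 501 alternatives were made. Of these, 483 kept the direction and the side of the threshold, and 17 turned in sign. The remaining 1 came to pass the test: Dld in transgenic hearts without transgenic TAC 1, at -1.38 from 1 array on each side. The cause of these changes was not tested. Signs turned for Ogdh, Pdk2 and Oxct1 after TAC over both genotypes without the transgenic sham array (0.0086, 0.093 and 0.0059), and for Ogdh and Pdk2 without both arrays of low Xist (0.065 and 0.096), and Oxct1 stood at 0.012 by its other probe. Leaving out 1 array at a time these 3 ranged from -0.31 to 0.0086, from -0.28 to 0.093 and from -0.11 to 0.0059. Between genotypes over both surgeries Bckdk turned to -0.076 by the median over probes, -0.025 without both arrays of low Xist and -0.18 by its other probe, Cs turned to -0.064 without both arrays of low Xist, and Nnt to 0.012 by the median over probes. Leaving out 1 array at a time gave -0.14 to 0.13 for Cs, -0.22 to 0.28 for Bckdk, -0.24 to 0.00082 for Ogdh and -0.18 to 0.037 for Pdk2.

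Leaving out 1 array at a time, all genes past the test ranged from 0 to 37 after TAC over both genotypes (1 with all arrays), from 24 to 474 between genotypes over both surgeries (106), from 0 to 191 between genotypes after TAC (23), from 0 to 11 within wild type (0), from 0 to 245 within transgenic hearts (0) and from 0 to 1 for the difference of the responses (0). Genes of the set past it ranged from 0 to 0, 0 to 1, 0 to 2, 0 to 0, 0 to 6 and 0 to 0, and their medians from -0.49 to -0.18, -0.02 to 0.10, -0.13 to 0.15, -0.24 to -0.12, -0.52 to -0.30 and -0.27 to -0.05. Unadjusted p under 0.05 were 1 to 20 after TAC over both genotypes, 9 with Xist as a covariate and 0 without both arrays of low Xist. The share of all genes moved with these counts. The 20, found without transgenic TAC 1, stood against 15.5% of all genes, and the 9 against 5.88%. With all arrays there were 14, against 9.25%. The 1, found without the transgenic sham array, and the 0 come from fits that keep 1 sham array. Over both genotypes, 2 genes passed without a filter or with the stricter filter, and 0 with the lower quartile subtracted, without the intensity trend, with Xist as a covariate and without both arrays of low Xist. Between genotypes over both surgeries, 51 passed by the median over probes, 44 with the stricter filter, 28 with the quartile subtracted, 54 with Xist as a covariate and 0 without both arrays of low Xist. After TAC, 5 passed by the median over probes, 38 without a filter, 11 with the stricter filter, 0 with the quartile subtracted and 8 without the trend. Within wild type 5 passed without a filter and 10 with Xist as a covariate, within transgenic hearts 1 without a filter, and for the difference of the responses 5 with Xist as a covariate. The median within transgenic hearts was -0.26 with Xist as a covariate.

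Between the sham arrays, tested as an addition after the values were seen, 3 genes passed with all arrays, 2 to 53 with 1 TAC array left out, 1 by the median over probes or with the stricter filter, 9 without a filter, 0 with the quartile subtracted and 2 without the trend, with none of the set in any of these fits.

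Taking the title numbers of the TAC arrays as a replicate block gave 61 genes between genotypes after TAC, 0 of them in the set. The arrays share only a number: deviations of like-numbered arrays correlated at r = -0.0288 over all genes. Each sham group has 1 array, and probes near background limit what can be read for Dld, Ogdhl, Pdk3, Bcat1 and Klf15.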
